A study of Rattus norvegicus with 6 samples.

Results

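Genes of DNA replication and S phase were followed in AR42J cells, an established line from a rat tumour of the exocrine pancreas, cultured for 48 h in the presence or absence of dexamethasone, a drug that activates the glucocorticoid receptor. The set comprised 48 genes of the replicative helicase, origin licensing, DNA polymerases and their clamp, nucleotide supply, chromatin copying and the replication checkpoint. Of these, 35 had a probe set named for them alone on the Affymetrix Rat 230A array, out of 10411 genes so represented, and where a gene had several probe sets the one that was brightest on average over the 6 arrays (mean log2 signal) was used. No measured difference between the groups entered the choice of probe set. The other 13 listed genes were not analysed here: Orc1, Cdc6, Cdt1 and Gmnn, which are all 4 licensing genes of the set, and Gins2, Cdc45, Pole2, Rfc5, Rrm2, Uhrf1, Chaf1b, Msh6 and Topbp1. The probe set that carries the symbol Rrm2 carries others as well and was given no name.

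There were 2 groups of 3 cultures each, one array per culture. Treated cultures received 100 nM dexamethasone, and control cultures the same medium without it. All 6 cultures came from stocks thawed at passage 29, were plated for 24 h in 20% serum and were then held for 48 h in 5% serum, so that both groups went through the same drop in serum. Across 5 months the experiment was run 3 times, each time with both conditions side by side. Replicate numbers 1 to 3 were taken to mark those pairs. The comparison asks how dexamethasone changes gene expression in these cells.

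Values below are MAS5 signals, which are relative to the trimmed mean signal of each array. They compare a gene with itself across arrays, never one gene's level with another's. A log2 change is dexamethasone minus control with its SE from a limma fit that has the pair as a block. Its p-values were adjusted by the Benjamini-Hochberg method over all 9520 probe sets bright enough to test, and a gene was called at an adjusted p under 0.05. Arrays were scaled alike, with trimmed mean signals of 497.6 to 498.4, and had 68.3% to 79.5% of probe sets above a background level that ran from 51.7 to 115.9. That level was set on each array by its brightest Bacillus control probe set, a sequence rat RNA should not hold. Control arrays had levels of 54.5, 97.3 and 51.7 and treated arrays of 100.2, 83.7 and 115.9, in the order of the pairs. The ratios of 3' to 5' signal, a sign of RNA quality, were 0.97 to 1.07 for Gapdh and 1.19 to 1.69 for beta-actin, with both extremes for actin in treated arrays. Dexamethasone 3 stood apart on the second principal component, at 25.3 against -12.6 to 5.6 for the other 5 arrays. Of 17 markers of acinar cells, the cells such tumours arise from, 16 were above background on all treated arrays, and their summed signals were 93096 to 120400 in controls and 157350 to 185550 with dexamethasone. Of 15 stromal, endothelial and immune markers, 11 were too dim to test, Lum, Kdr, Ptprc and Itgam were not above background on any array, and their summed signals were 1487 to 1573 and 1753 to 1899. Pecam1, an endothelial adhesion gene, was the marker of other cells that was called (1.05 ± 0.27, adjusted p = 0.0143), and 10 of 14 tested acinar markers were called higher, against 15.9% of all probe sets tested. The part of either in the results below was not tested.

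Replication begins at origins, where the origin recognition complex with Cdc6 and Cdt1 loads the ring of Mcm2 to Mcm7 onto DNA in G1. Kinases then join Cdc45 and GINS to the ring to make the active helicase, primase and polymerases copy the strands, replication factor C loads the PCNA clamp, and ribonucleotide reductase and thymidylate synthesis supply the building blocks. Many of these genes are transcribed together as cells pass from G1 into S phase, under E2F transcription factors, and fall silent when cells leave the cycle.

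With dexamethasone, 29 of the 30 replication genes bright enough to test were lower, and 28 of them by at least 2-fold. Brightness was judged on the mean log2 signal over control and treated arrays together, so bright controls could carry a gene into the test. Mcm6, Dnmt1, Pclaf, Rfc3, Chek1 and Rpa2 had every treated signal under the filter level of 147.6. They are among the 28, and all but Rpa2 fell by at least 4-fold. Limma called 0 higher, and 0 were higher at an unadjusted p under 0.05. Over all probe sets tested, 21.2% were called lower, 6.61% lower by at least 2-fold and 1.42% lower by at least 4-fold, where 16 of the 30 replication genes lay. The median log2 change of the 30 was -2.05, against -0.05 for all probe sets tested. In each of the 3 pairs the median was close to that value, at -2.11, -2.21 and -2.10. The treated array had the higher background level in pairs 1 and 3 and the lower one in pair 2, and the part of that level in the falls was not tested. Without pair 3, which holds dexamethasone 3, 29 of 30 were again called lower. So few arrays are left in that fit that its calls rest mostly on spread pooled over probe sets, not on each gene's own.

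On the array as a whole, all 35 genes had every treated array below every control array, including the 5 that were too dim to enter the test. Over all 15866 probe sets analysed, 20.4% had that order. Controls were bright enough to measure: 34 of the 35 genes were above background on all 3 control arrays. With dexamethasone 23 remained above background on all 3 arrays, 6 on 1 or 2 of them, and 6 on none. For the genes below background on all 3 the fitted size of the fall is not exact. A lower bound against the background level is given for each of them except Dck, whose controls were too dim for one. In total RNA from whole cultures, fewer cells that express a gene and less of its RNA per cell cannot be told apart.

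**Figure D1:**
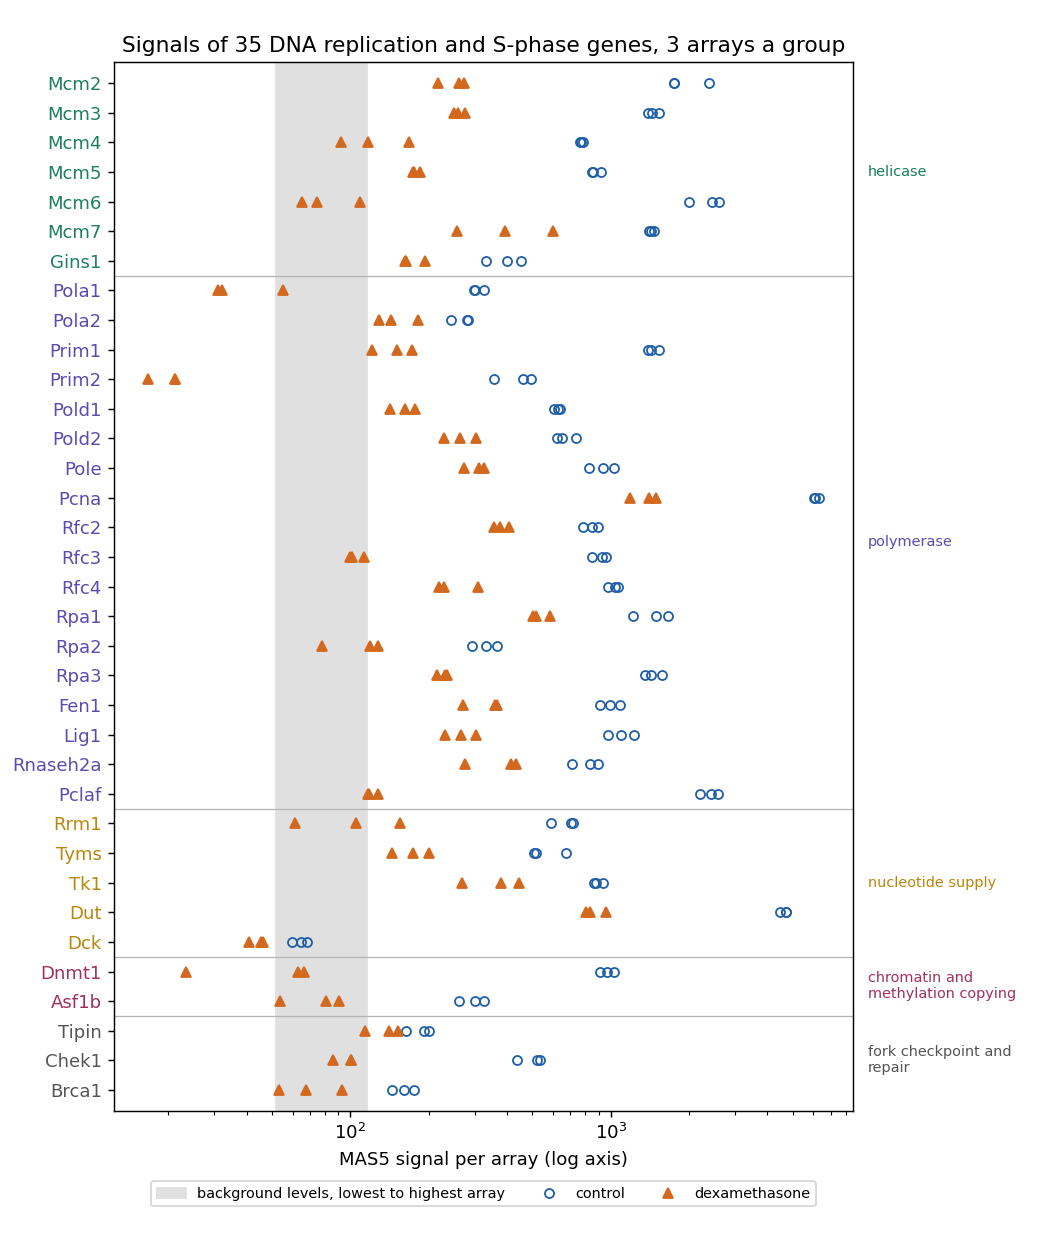
MAS5 signal (log axis) of the 35 replication genes on each array, control as open circles and dexamethasone as triangles, grouped by role, with the range of the array background levels (51.7 to 115.9) in grey. For every gene the 3 treated arrays lie to the left of the 3 control arrays, and Tipin and Dck show the narrowest gaps.

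The helicase genes fell together and unevenly. All 7 that were measured were called lower, 5 of them by at least 4-fold, with a median log2 change of -2.47. Mcm6, a subunit of the ring, had control signals of 2609.8, 1999.7 and 2448, given throughout in the order of replicates 1 to 3, and treated signals of 109, 74.5 and 65.3. Its treated signals were near background, with only dexamethasone 1 above it, and its log2 change of -4.85 ± 0.17 (adjusted p = 5.1e-07) was the largest of the 30. This probe set can measure more than 1 transcript of the gene. Mcm2 read 2377, 1751 and 1748 in controls, where control 1 was the highest, and 260.4, 272 and 217 with dexamethasone, a change of -2.96 ± 0.15 (adjusted p = 2.4e-06). Mcm4, whose control arrays were within a few percent of each other at 764, 771 and 781, read 92.0, 169 and 116 with dexamethasone (-2.66 ± 0.20, adjusted p = 2.0e-05), and dexamethasone 1 was below background.

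Mcm3 and Mcm5 fell by similar amounts with little spread. Mcm3 went from 1528, 1435 and 1392 to 250.4, 275 and 260.2 (-2.47 ± 0.14), and Mcm5 from 848, 858 and 920.5 to 185, 174 and 175 (-2.30 ± 0.15, adjusted p = 1.0e-05). These leave 18.0% and 20.3% of the control signal. Mcm7 fell least of the ring subunits and was the most variable: its control signals of 1400.5, 1423 and 1469 were alike, but the treated ones were 600.1, 256 and 394, with dexamethasone 1 over 2 times dexamethasone 2. Its log2 change was -1.86 ± 0.22 (adjusted p = 0.000243), and the pairs gave -1.22, -2.47 and -1.90. Gins1, a subunit of the GINS complex that travels with the ring, went from 398, 453 and 332 to 162, 164 and 193 (-1.18 ± 0.20, adjusted p = 0.00191), so that 44.1% of the control signal was left.

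The ring subunits differed in the size of their fitted change. The change of Mcm6 minus that of Mcm7 was -3.36, -2.27 and -3.33 log2 units in pairs 1 to 3, a mean difference of -2.99 ± 0.62 (SD, n = 3). These are the extremes of the complex, picked after their values were seen, so no test was made. With 2 of 3 treated arrays of Mcm6 below background, the difference is not an exact size. Probe sets differ in their own background and response, so unequal changes in signal are not a measure of unequal loss of protein or complex.

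Promoter windows were read for the genes of the set because they fell together. RefSeq windows on the rat build GRCr8, from 250 bases before to 50 bases after each gene's start, were matched by symbol for 43 of the 48 genes and 33 of the 35 on the array. The E2F motif was searched on both strands as TTTCCCGC, TTTGGCGC, TTTCGCGC or TTTGCCGC, forms that can overlap each other. Of the 33 windows, 16 (48.5%) held at least 1 match, against 2.74% of 21851 windows of protein-coding genes and 2.14% of all 33469 windows. Member windows were also richer in CpG, with a median of 21 CpG against 11 for protein-coding genes, and all 4 forms of the motif hold a CpG. Matches lay in the windows of Mcm2, Mcm3, Mcm5, Mcm6 and Mcm7. Among the genes tested, the 15 with a match had a median log2 change of -2.30 (from -4.85 to -0.45) and the 13 without a median of -1.59 (from -3.31 to -0.84). The ranges overlapped broadly, and no test was made. A match is a description of the sequence and does not show binding.

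The windows of 3 ring subunits and of the clamp loader gene Rfc3 are given to show how the matches sit near the start, 5′ to 3′ on the strand of the gene, with E2F matches in capitals. Among the 5 ring genes with a match, Mcm6 fell most and Mcm7 least. Their places are chr13:42404303-42404602 on the minus strand, chr19:13488563-13488862 on the plus strand, chr12:22163129-22163428 on the minus strand and chr12:5836318-5836617 on the plus strand, and position 1 is the first base of the gene.
Mcm6: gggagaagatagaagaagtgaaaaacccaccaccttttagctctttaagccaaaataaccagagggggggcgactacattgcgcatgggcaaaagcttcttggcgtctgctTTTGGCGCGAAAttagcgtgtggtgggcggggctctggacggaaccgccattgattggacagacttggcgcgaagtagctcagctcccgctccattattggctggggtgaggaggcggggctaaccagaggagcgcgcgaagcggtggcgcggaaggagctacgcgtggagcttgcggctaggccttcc
Mcm5: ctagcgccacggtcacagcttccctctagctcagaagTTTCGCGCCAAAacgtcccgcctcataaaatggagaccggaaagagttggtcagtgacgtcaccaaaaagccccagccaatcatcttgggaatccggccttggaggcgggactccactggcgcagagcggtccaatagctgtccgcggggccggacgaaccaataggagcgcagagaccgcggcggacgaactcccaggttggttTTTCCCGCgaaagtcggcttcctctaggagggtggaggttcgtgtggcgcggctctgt
Mcm7: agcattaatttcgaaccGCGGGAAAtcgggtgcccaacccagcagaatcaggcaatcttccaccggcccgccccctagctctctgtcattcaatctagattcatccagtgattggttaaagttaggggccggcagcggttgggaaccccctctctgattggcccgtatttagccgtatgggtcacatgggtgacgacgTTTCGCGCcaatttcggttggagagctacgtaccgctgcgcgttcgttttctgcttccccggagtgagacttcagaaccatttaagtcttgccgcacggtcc
Rfc3: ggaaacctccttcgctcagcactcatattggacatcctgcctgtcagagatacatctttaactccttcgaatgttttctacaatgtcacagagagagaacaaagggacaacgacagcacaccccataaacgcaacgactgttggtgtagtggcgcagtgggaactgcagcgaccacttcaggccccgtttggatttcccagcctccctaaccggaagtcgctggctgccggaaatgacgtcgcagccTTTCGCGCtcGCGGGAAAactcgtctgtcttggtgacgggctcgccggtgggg
In Mcm6 the capitals are overlapping matches on opposite strands that begin 139 and 135 bases before the start. Mcm5 has an overlapping pair at 213 and 209 bases before the start and another match at 8 bases before it, Mcm7 has matches at 233 and 52 bases before it, and in Rfc3 they begin at -3 and 8. Thus the subunit that fell most and the one that fell least both carry matches. No match was recorded for Mcm4, whose log2 change was -2.66.

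Other motifs in the same windows were closer to the background of all genes. The CCAAT box, searched as CCAAT on both strands, was in 57.6% of the 33 windows and in 38.0% of protein-coding ones. The CHR element of late cell cycle promoters, searched as TTTGAA or TTCGAA on both strands, was in 18.2% and 18.5%. The core of a glucocorticoid response element, searched as ACANNNTGT, which is its own reverse complement, was in 1 of 33 windows (3.03%, in Prim2), against 5.68% of protein-coding windows. These windows hold 300 bases, and nothing is drawn from the lack of a match about the factor.

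Genes of the polymerases, clamp and ligation were all lower where tested, 16 of 16, by a median log2 change of -1.80, and 7 of them fell by at least 4-fold. The range within this group was wide, from -4.31 for Pclaf to -0.84 for Pola2. Polymerase alpha with primase starts each new strand, and its genes showed that range in miniature. Prim1, the catalytic primase subunit, went from 1425, 1533 and 1391 to 172, 121 and 151 (-3.31 ± 0.17, adjusted p = 2.5e-06). Pola2, the accessory subunit of polymerase alpha, went from 280.5, 282 and 244 to 182, 143 and 129 (-0.84 ± 0.20, adjusted p = 0.00992). It kept 55.8% of its control signal, and its call was lost without pair 2 (-0.78, adjusted p = 0.0524). The change of Prim1 minus that of Pola2 was -2.42, -2.69 and -2.28 log2 units in the 3 pairs (mean -2.46 ± 0.21, SD, n = 3). These are the only subunits of the complex that were tested.

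The other subunits of polymerase alpha and primase were too dim on average to be tested. Prim2, the large primase subunit, had signals of 357, 459 and 493 in controls and 21.2, 21.2 and 16.7 with dexamethasone, and Pola1, the catalytic subunit, had 301, 328 and 299.5 and 32.0, 31.1 and 55.3. No treated array was above background for either gene, whereas all control arrays were. Measured against the background level, Prim2 was at least 4.36-fold lower and Pola1 at least 3.12-fold lower. In a limma fit with no filter on dim probe sets, in which 12.2% of all probe sets were called lower, both passed (adjusted p = 0.000166 and 0.000809).

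Genes of the strand-copying polymerases fell moderately. Pold1, the catalytic subunit of polymerase delta, which copies the lagging strand, went from 629, 636 and 606 to 163, 177 and 142 (-1.96 ± 0.16, adjusted p = 3.6e-05). Its partner Pold2 went from 650.1, 733 and 619.7 to 263, 305 and 229 (-1.33 ± 0.15), and the difference between them was small but even over pairs (-0.63 ± 0.04 log2 units, SD, n = 3). Pole, the catalytic subunit of polymerase epsilon, which copies the leading strand, went from 1026, 825 and 936 to 311, 273 and 326 (-1.61 ± 0.14, adjusted p = 5.2e-05). In these 3 genes the lowest control array was at least 2 times the highest treated one.

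Pcna encodes the sliding clamp that tethers polymerases to DNA. Its signals were 6103, 6322 and 6049.6 in controls and 1492, 1191 and 1404 with dexamethasone, far above background in both groups, and its change of -2.18 ± 0.12 (adjusted p = 3.0e-06, 22.0% left) therefore does not rest on dim signals. Pclaf, whose product binds the clamp, fell further: 2435, 2572 and 2207 in controls against 127, 118 and 117 with dexamethasone, just above background on each treated array (-4.31 ± 0.14, adjusted p = 3.5e-07). The pairs gave nearly the same change for Pclaf, at -4.26, -4.44 and -4.24.

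The clamp loader, replication factor C, was represented by 3 small subunits that fell by different amounts. Rfc3 went from 929, 961 and 849.6 to 102, 113 and 99.8 (-3.12 ± 0.16, adjusted p = 2.6e-06), with dexamethasone 3 below background. Rfc4 went from 1035, 977 and 1065 to 228, 310.4 and 219 (-2.04 ± 0.17). Rfc2 went from 890, 846 and 784 to 407, 356 and 377 (-1.15 ± 0.14, adjusted p = 0.00034) and kept 45.2% of its control signal. The 95% intervals of the 3 log2 changes, -3.49 to -2.75, -2.42 to -1.65 and -1.47 to -0.82, did not overlap. The difference between Rfc3 and Rfc2, the extremes of the 3, was -1.98 ± 0.12 over pairs (SD, n = 3), and no test of it was made. For Tk1, probe sets of the same gene gave -1.33 and -2.47, also with intervals that did not overlap. Gaps between probe sets, here and in the other complexes, are therefore not by themselves a measure of unequal loss.

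Replication protein A coats the single strands opened by the helicase. Rpa3, its smallest subunit, went from 1430.3, 1360.1 and 1578 to 230.1, 234 and 215 (-2.68 ± 0.15, adjusted p = 3.1e-06), and Rpa1, its largest, from 1656, 1220.3 and 1494 to 515, 503 and 586 (-1.44 ± 0.14, adjusted p = 9.4e-05). Rpa2 was dimmer and noisier, at 332, 365 and 292 in controls and 119, 77.9 and 127 with dexamethasone, where dexamethasone 2 was below background (-1.64 ± 0.24, adjusted p = 0.001). Rpa3 fell further than Rpa1 in each pair, with differences of -0.95, -1.26 and -1.53 log2 units. These are the extremes of the complex, and no test of the difference was made.

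Genes that finish the lagging strand were lower as well. Fen1, the flap endonuclease that trims primers, went from 910.2, 1089 and 997 to 367, 272 and 361 (-1.59 ± 0.17, adjusted p = 0.000152). Lig1, the ligase that joins the fragments, went from 1229, 1098 and 978 to 266, 231 and 303 (-2.05 ± 0.16, adjusted p = 2.9e-05). Rnaseh2a, the catalytic subunit of the nuclease that removes ribonucleotides from DNA, went from 897, 830.5 and 709 to 432, 415 and 277, the smallest change of the 3 (-1.14 ± 0.15, adjusted p = 0.000487). For Lig1 and Fen1 24.1% and 33.1% of the control signal was left, and for Rnaseh2a 45.5%.

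**Figure D2:**
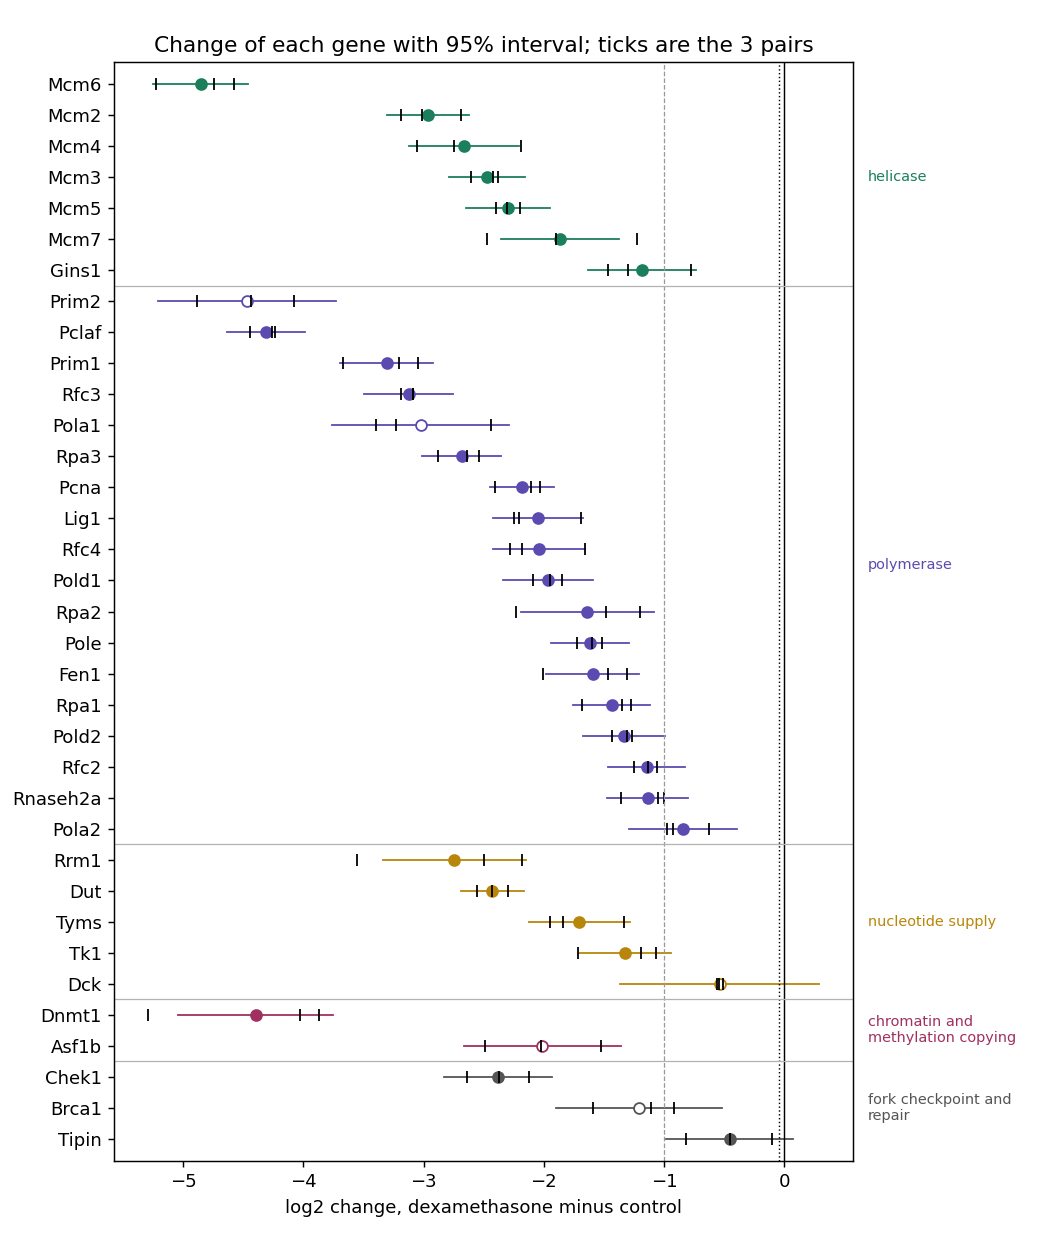
Log2 change (dexamethasone minus control, x axis) of each of the 35 genes, ordered within its role, with the 95% interval from limma as a line and the 3 pairs as black ticks. Filled points were tested, open points were too dim and come from the fit with no filter, the dashed line marks a 2-fold fall and the dotted line the median of all probe sets tested (-0.05); every point is below 0, and the intervals of Tipin and Dck cross 0.

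In nucleotide supply, 4 of 4 tested genes were lower, with a median log2 change of -2.07. Rrm1, the large subunit of ribonucleotide reductase, which makes deoxyribonucleotides, had signals of 592, 719 and 706 in controls and 105, 61.1 and 156 with dexamethasone. Dexamethasone 2 was below background, and the change of -2.75 ± 0.26 (adjusted p = 8.1e-05) varied over the pairs (-2.50, -3.56 and -2.18). Dut, the dUTPase that keeps uracil out of DNA, was bright in both groups, at 4480, 4730.2 and 4708 and 829, 962 and 801 (-2.43 ± 0.12, adjusted p = 1.9e-06). Its interval (-2.69 to -2.17) was among the narrowest in the set.

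Thymidylate genes fell too. Tyms, thymidylate synthase, went from 506, 517 and 672 to 201, 145 and 174 (-1.71 ± 0.18, adjusted p = 0.000165). Tk1, the S-phase thymidine kinase, was the only gene of the set with a further probe set, and the 2 probe sets differed in size. The one chosen read 880, 866 and 934 and 268, 379 and 446 (-1.33 ± 0.17, adjusted p = 0.000396), and the other read 1281, 1117 and 1325 and 247, 241 and 188 (-2.47 ± 0.17, adjusted p = 1.0e-05). Their 95% intervals, -1.71 to -0.94 and -2.84 to -2.09, did not overlap, so the size of the fall of Tk1 depends on the probe set, while its direction does not.

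Dck, the deoxycytidine kinase of the salvage pathway, was too dim to test. Its signals were 64.9, 67.9 and 59.7 in controls, with control 2 below background, and 45.5, 46.1 and 40.9 with dexamethasone, all below background. The groups did not overlap, but in the fit with no filter the gene was not called (-0.54 ± 0.35, adjusted p = 0.341) with a 95% interval of -1.37 to 0.29. At these signals neither no change nor a fall of over 2-fold was told apart.

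Dnmt1 and Asf1b serve the copying of chromatin. Dnmt1, the methyltransferase that restores methylation on new strands, went from 965, 1029 and 912 in controls to 66.1, 63.0 and 23.3 with dexamethasone. No treated array was above background, dexamethasone 3 was the lowest, and against the background level the gene was at least 9.77-fold lower. Limma's fitted log2 change, from those dim treated signals, was -4.40 ± 0.28 (adjusted p = 8.8e-06), and the bound itself was not tested. Asf1b, a histone chaperone of dividing cells, lay just under the filter, at 302, 327 and 261 and 53.7, 80.3 and 90.7. It too was below background on all treated arrays, at least 2.98-fold lower, and passed in the fit with no filter (adjusted p = 0.00274).

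Of the fork checkpoint and repair genes, 1 of 2 tested was called lower. Chek1, the checkpoint kinase that responds to stalled forks, went from 536, 438 and 519.9 to 86.0, 101 and 100.2 (-2.38 ± 0.20, adjusted p = 3.4e-05), with only dexamethasone 2 above background and a probe set that can measure more than 1 transcript. Brca1, a repair gene that peaks in S phase, was dim, at 145, 160.4 and 176 and 67.3, 53.2 and 93.2. It was at least 1.61-fold lower against background and was called in the fit with no filter (adjusted p = 0.0271). Tipin, which with Timeless steadies the fork, was the 1 gene tested that was not called: its signals were 200, 164 and 191 in controls and 114, 153 and 140.2 with dexamethasone (-0.45 ± 0.23, adjusted p = 0.157). The groups of Tipin did not overlap, but the pairs ran from -0.82 to -0.10 and the interval was -0.98 to 0.07. When arrays were scaled to the hybridization controls it passed (-0.70, adjusted p = 0.0466).

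**Figure D3:**
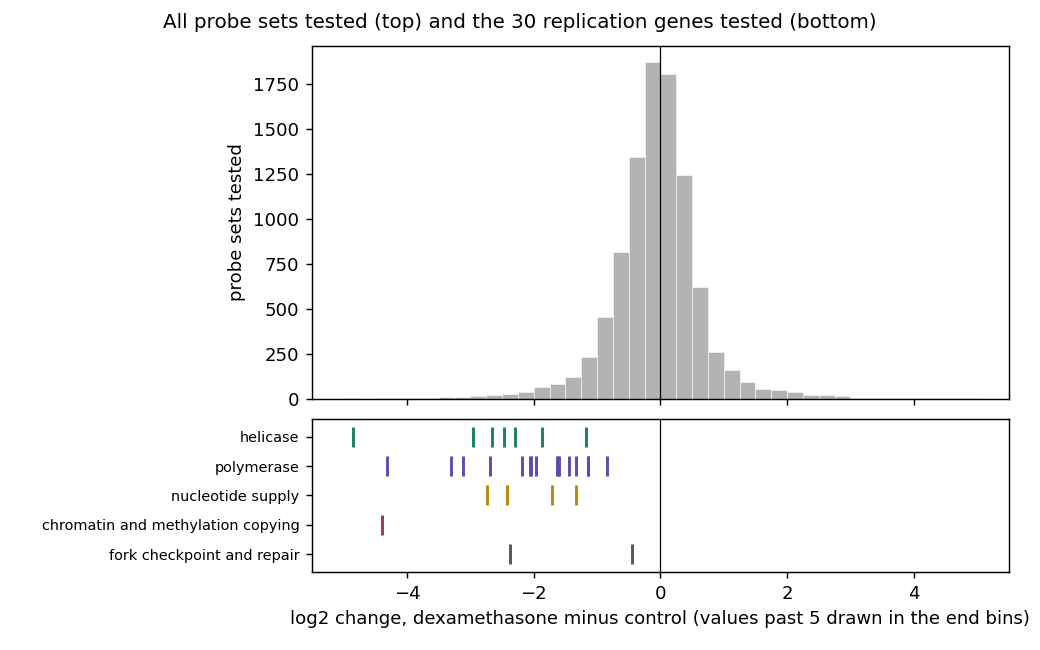
Number of probe sets (y axis) by log2 change in bins of 0.25 for all 9520 probe sets tested (grey bars), above the log2 changes of the 30 replication genes tested (ticks, by role). Probe sets centre near 0 (median -0.05), and all 30 ticks lie to the left of 0, with a median of -2.05.

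Other genes of the same pathway were read in the same fit to see how far the fall extended. Their lists were written from general knowledge but with earlier results of these data known, so they are not an independent check. Among 5 tested genes of origins and the helicase, 2 were lower, 0 higher and 3 not called, and 0 were higher at an unadjusted p under 0.05. With 21.2% of all probe sets called lower, a count of 2 among 5 genes is too small to set this list apart. The median log2 change was -0.17. Gins4, a GINS subunit, went from 839, 968 and 938 to 182, 148 and 139 (-2.56 ± 0.17, adjusted p = 1.1e-05), and its change minus that of Gins1 was -1.38 ± 0.55 log2 units (SD, n = 3). Orc6, the smallest subunit of the origin recognition complex, fell by 1.88 (adjusted p = 0.000127). Orc2, Orc4 and Orc5, other subunits of that complex, gave log2 changes of -0.13 ± 0.20, -0.17 ± 0.19 and -0.17 ± 0.20 and were not called.

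Among 15 tested genes of the fork and polymerases, 13 were lower, 1 was higher and 1 was not called. Over all probe sets tested, 21.2% were lower and 15.9% higher. The median log2 change of the 15 was -0.67, against -0.05 for all probe sets tested. Without pair 2, 8 were called lower. Top2a, the topoisomerase of dividing cells, went from 2598, 2848 and 2539 to 138, 201 and 114 (-4.18 ± 0.16, adjusted p = 8.6e-07), and Pold3, an accessory subunit of polymerase delta, from 412, 292 and 312 to 97.3, 80.6 and 152 (-1.66 ± 0.25, adjusted p = 0.000968). The gene that rose was Pold4, the smallest subunit of the same polymerase. Its signals were 568, 603 and 731 in controls and 2463, 2494 and 3631 with dexamethasone, highest in dexamethasone 3 (2.16 ± 0.12, adjusted p = 4.2e-06). All 3 treated arrays were above all controls, opposite to Pold1, Pold2 and Pold3. The change of Pold1 minus that of Pold4 was -4.07, -3.90 and -4.40 log2 units in the 3 pairs. Timeless, the partner of Tipin and singled out after its values were seen, was too dim to test, at 266, 283 and 240.1 and 89.1, 68.7 and 87.0, and was at least 2.65-fold lower against background.

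Nucleosome assembly genes were lower in 10 of 10 tested, against 21.2% of all probe sets tested. Their median log2 change was -0.90, against -0.05 for all probe sets tested. None was higher at an unadjusted p under 0.05 in limma. Nasp, a chaperone of linker and core histones, went from 921, 757 and 849 to 119, 214 and 234 (-2.21 ± 0.23, adjusted p = 0.000136), and Rbbp7, a histone-binding subunit of several chromatin complexes, fell by 1.20 (adjusted p = 0.000148). Chaf1a, the large subunit of the assembly factor CAF-1, was too dim on average to test and is named because of its values: 862, 869 and 835 in controls and 14.6, 12.3 and 18.0 with dexamethasone. That is at least 8.63-fold lower against the background level, below which all its treated arrays lay.

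Further nucleotide supply genes were mixed. Of 8 tested, 4 were lower, 0 higher (0 at an unadjusted p under 0.05 in limma) and 4 not called, with a median of -0.35. Without any 1 of the 3 pairs, 2 of the 8 were called lower, a share near the 21.2% of all probe sets. Dctpp1, which degrades surplus dCTP, fell from 1466, 1913 and 1637 to 371, 596 and 378 (-1.93 ± 0.14, adjusted p = 1.7e-05), and Slc29a1, a nucleoside transporter, fell by 0.71 (adjusted p = 0.00422). Shmt1, Nme2, Nudt1 and Dguok were not called, with log2 changes from -0.32 to 0.17.

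Among 13 tested genes of E2F factors, pocket proteins and S-phase kinases, 5 were lower, 2 higher and 6 not called. Over all probe sets tested, 21.2% were lower and 15.9% higher, so the share that rose was near that of the array. Another 3 genes of this list were too dim to test. Ccne1 and Ccne2, the cyclin E genes, were below background on all treated arrays, at least 4.10-fold and 2.69-fold lower against that level. Rb1, a pocket protein gene, was not called in the fit with no filter (-0.24 ± 0.24, adjusted p = 0.543). E2f8, an E2F factor that represses its targets, went from 1017, 892 and 888 to 169, 90.2 and 174 (-2.75 ± 0.21, adjusted p = 1.9e-05). E2f4, E2f5 and E2f6 were not called, at -0.18 ± 0.14, -0.43 ± 0.20 and 0.38 ± 0.23. The signals of E2f6 overlapped between groups, from 445.7 to 904.9 in controls and from 744.2 to 953.9 with dexamethasone. Cks1b, a small partner of cyclin-dependent kinases, went from 1478, 1535 and 1649 to 478, 382 and 328 (-1.99 ± 0.16, adjusted p = 3.2e-05).

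The called genes of this list include inhibitors of the cycle, some higher and some lower. Rbl2 encodes the pocket protein p130, which with E2f4 represses cell cycle genes in resting cells. Its signals were 149.7, 147 and 181 in controls and 617, 626 and 1085 with dexamethasone, highest in dexamethasone 3 (2.24 ± 0.18, adjusted p = 2.7e-05). Cdkn1a, the p21 inhibitor of cyclin-dependent kinases, went from 1408, 1367 and 1308 to 2233, 2230.5 and 2343 (0.74 ± 0.12, adjusted p = 0.00132). In both, all treated arrays were above all controls. Cdkn1c, which encodes the p57 inhibitor and is named because it moved the other way, went from 638, 731 and 546 to 267, 129.7 and 241 (-1.64 ± 0.26, adjusted p = 0.00127). Cdkn1b, the p27 inhibitor, was not called (0.53 ± 0.20, adjusted p = 0.0726).

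**Figure D4:**
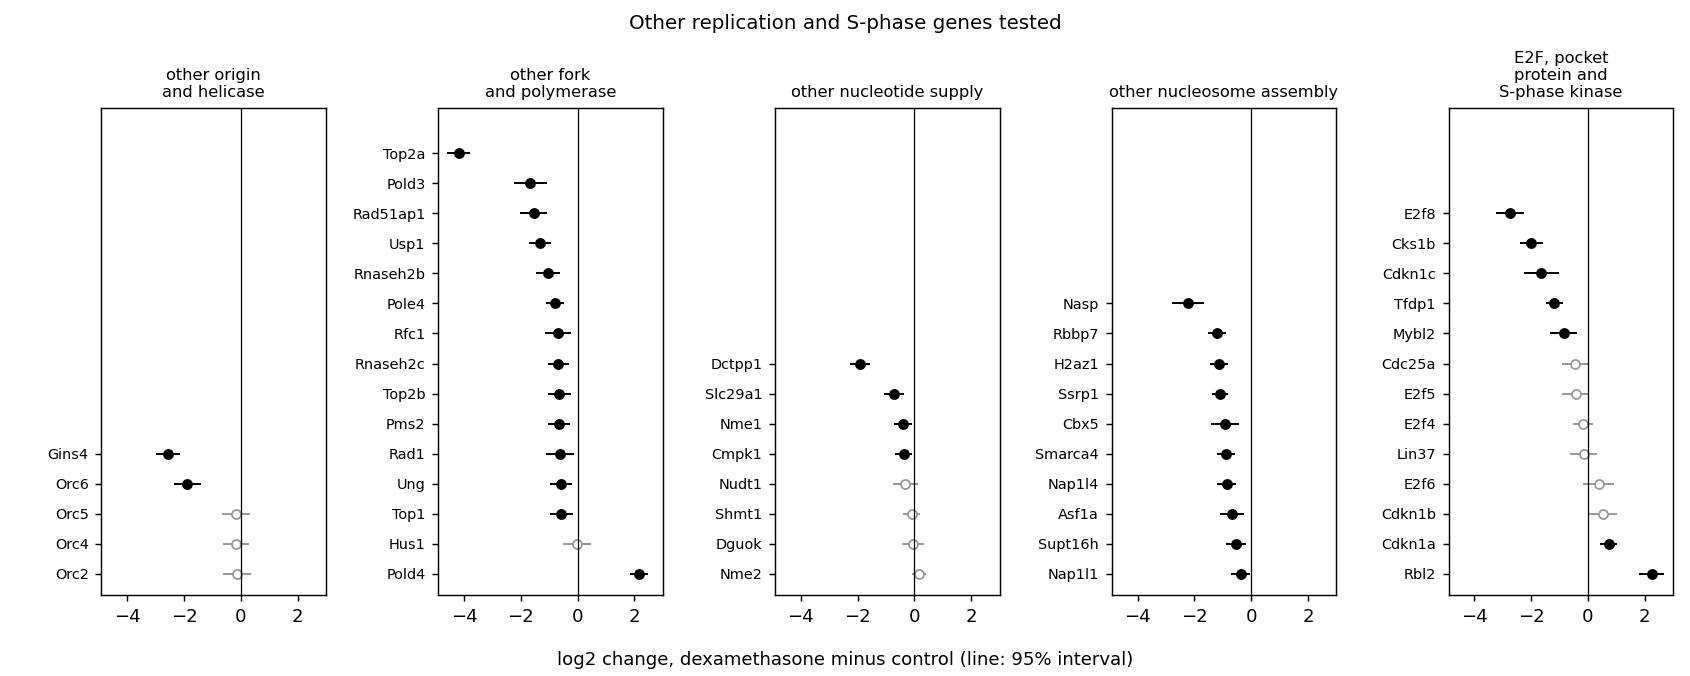
Log2 change (dexamethasone minus control, x axis) with 95% interval of each tested gene on the 5 lists of other replication and S-phase genes, filled black where called and open grey where not. Pold4, Rbl2 and Cdkn1a are the called genes to the right of 0, and Top2a lies furthest to the left.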

How the data were processed

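Total RNA from 6 AR42J cultures was measured on 6 arrays. The deposited values are linear signal intensity, 1 per probe set. The submitters' processing notes name GCOS and MAS5 as the tools. Their versions, scaling settings and detection calls are not given in the sources used here. Signals are relative to each array's trimmed mean, and low signals are noisy after MAS5's background subtraction.

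Of 15923 probe sets, 57 controls were left out. Of the other 15866, 12783 had 1 gene symbol on the platform annotation, updated through the gene table of GRCr8, which matched 12754 by gene identifier, and 312 had several symbols and were given no name. For the log2 scale, 0.1 stood in for 4 signals of 0. Probe sets with a mean log2 signal under the 40th percentile (a signal of 147.6) were left out of the test, which left 9520. The fit used limma 3.58.1 in R 4.3.3 (intensity trend, treatment, pair as a block) and was tested on simulated data. That cultures were run in pairs comes from the series' design text, and arrays with the same replicate number were taken as a pair. Deviations of same-numbered arrays from their group means correlated at -0.095, 0.112 and 0.211. Those of differently numbered arrays correlated at -0.248 to 0.175, so these values give little sign of the pairing. The background level was the highest of 27 Bacillus control probe sets per array; bounds set the mean log2 control signal against the higher of that level and the probe set's signal.

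The genes and lists were chosen with earlier results of these data known. Promoter windows were matched by symbol, and for the 3 genes with several the entry listed earliest was used. Every gene of the set on the array is named; from other lists, the 2 largest called changes in each direction with the same sign in all 3 pairs and each E2F gene tested are named by rule. Orc2, Orc4, Orc5, Shmt1, Nme2, Nudt1, Dguok, Cdkn1b, Cdkn1c, Ccne1, Ccne2, Rb1, Timeless and Chaf1a fall outside that rule and were named after their values were seen, as was Pecam1. Cultures were separate, of 1 cell line at 1 dose and time, and 3 arrays a group limit the precision. Alternatives were other array scalings, a pseudocount, other filters, no trend, no block, averaged probe sets and each pair left out. With a pair left out and the block kept, little is left to estimate a gene's own spread. Calls and p-values of those fits rest mostly on spread pooled over probe sets.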

Additional observations from a re-analysis of the deposited data

How the results depend on the processing

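The fall of the replication genes kept its direction for every gene tested under all 12 alternatives run. Not all of these could alter a direction. Other filters, no intensity trend and no block leave a gene's log2 change as it was, and averaged probe sets altered only that of Tk1. Over 349 values of single genes under alternatives, 347 stayed on their side of the threshold, 1 was lost (Pola2 without pair 2) and 1 was gained (Tipin with hybridization control scaling). The count called lower was 29 of 30 with quantile normalization, 75th percentile centring, a pseudocount of 50, no intensity trend, averaged probe sets and no replicate block, 30 of 30 with hybridization control scaling, 33 of 35 with no filter, 28 to 29 with 1 pair left out, and 19 of 19 with the filter at the 60th percentile, which tests fewer genes. The replicate block changed no call among the genes of the set. Their median log2 change of -2.05 was -1.92 with 75th percentile centring, -2.29 with hybridization control scaling, -1.98 with quantile normalization and -1.85 with the pseudocount, which took Mcm6 to -4.18 and Dnmt1 to -3.37. The median of all probe sets moved from -0.05 to 0.08 and -0.29 with 75th percentile centring and hybridization control scaling. Both shift every probe set of an array alike. The distance of the set from that median (-1.999) therefore could not change, and nothing is drawn from it. Over the array, 2019 were called lower and 1512 higher; 75th percentile centring gave 1503 lower and 2037 higher, and hybridization control scaling 3257 lower and 778 higher.

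Among the other lists, origin genes called lower went from 2 to 1 at the 60th percentile filter. Nucleotide supply genes called lower went from 4 to 2 with 75th percentile centring and with no intensity trend, and 1 was higher with that centring. With 1 pair left out, counts called lower were 8 to 12 for fork genes and 2 to 2 for nucleotide supply genes; beyond the filter, which tests fewer genes, the cause was not tested. Signals below background on at least 1 treated array limit the falls of Mcm6, Chek1, Mcm4, Rfc3, Rpa2 and Rrm1, and on all 3 those of Dnmt1, Prim2, Pola1, Asf1b, Brca1 and Dck, so these are not exact sizes.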
